A study of Mus musculus with 4 samples.

Results

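The collagen family was read in fetal mouse lung at E18.5 through 82 probe sets, on the Affymetrix designs MOE430A and MOE430B, that the platform annotation pairs with a single gene named Col, a number, a and a number. They stood for 42 genes among 18193 named on the designs, and for 82 of 45137 probe sets after control probe sets were left out. MOE430A carried 58 of them for 36 genes and MOE430B carried 24 for 17 genes, and 11 genes had a probe set on each. The genes were sorted by the structure their proteins build into 11 fibrillar collagens (21 probe sets), 9 network collagens (17 probe sets) and 22 other collagens (44 probe sets).

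One genotype was Myf5-/-:MyoD-/-, null for both myogenic regulators and labelled as BALB/c, and the other was wild type BALB/c. Both were taken at E18.5. The embryos lacking Myf5 and Myod1 form no skeletal muscle, and the title of the series places the study in the part that this muscle plays in lung development. The arrays numbered 4, with 1 array per genotype on each design and no replicate, so no difference below has a replicate check or a p-value, and the number of arrays limits every value. The sources used here do not say whether an array's RNA came from 1 embryo or a pool.

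Collagens are triple helices of 3 chains that are folded in the endoplasmic reticulum, secreted and assembled outside the cell. Fibrillar collagens form the tensile fibres of the lung's airways, vessels and septa. Network collagens form sheets, and the type IV chains among them form that of the basement membrane under epithelium and endothelium. The others decorate fibrils, form beaded filaments, anchor epithelium or sit in cell membranes. Fibroblasts are known as the main makers of fibrillar collagens, and type II, type IX and type XI collagens are best known from cartilage, which in the lung lies in the airway wall.

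The samples were checked against markers before the collagens were read. All 12 lung epithelium markers passed the filter on MOE430A, among them Sftpc, surfactant protein C. Its signal was 113337 in double knockout and 78525 in wild type lung. The 12 had a median log2 ratio, double knockout over wild type, of 0.50, 9 higher and 3 lower, against 0.01 over all genes. All 11 cardiac muscle markers passed there too. Their summed signal over 14 probe sets was 391943 in double knockout and 359963 in wild type lung. The lung epithelium sum over 17 probe sets was 280722 in double knockout and 211655 in wild type lung. The samples therefore held cardiac muscle RNA as well as lung RNA. Of the targeted genes, Myod1 ran counter to the labels, reading 1081 in the array labelled double knockout and 85 in the array labelled wild type on MOE430A, at least 3.80-fold higher, and 607.2 and 337.2 on MOE430B, where it stayed below the filter. Myf5 read 8.94 in the array labelled double knockout and 110.5 in the array labelled wild type, both too dim to order. No source used here places either probe set inside or outside a deletion, so every direction below rests on the labels. Xist, the RNA of the inactive X chromosome, read 2749 in double knockout and 7600 in wild type lung, so that the sex of the samples and the genotype cannot be told apart. Control probe sets for 18S ribosomal RNA read higher in the double knockout, by a median of 3.93-fold on MOE430A and 3.15-fold on MOE430B. The ratio of the 3′ to the 5′ probe set of Gapdh was 0.845 in double knockout and 0.788 in wild type lung on MOE430A, and 0.809 and 0.746 on MOE430B. That of actin was 1.027 in double knockout and 1.006 in wild type lung on MOE430A, and 1.01 and 1.065 on MOE430B, so the controls did not differ in 1 direction throughout. The lymphoid markers on MOE430A had a summed signal over 16 probe sets of 4041 in double knockout and 28976 in wild type lung. The 10 of them that passed did so through wild type alone, so that their direction was fixed by the filter. The part of sex, ribosomal RNA, and epithelial, cardiac muscle and lymphoid cells in the collagen values was not tested.

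To pass, a probe set needed a signal in either genotype at or above its design's median (789.2 on MOE430A, 858.2 on MOE430B), and signals under the 25th percentile (284.5 and 279.1) were set to that floor, so that a ratio with 1 signal under the floor is a bound. On this basis 33 of the 42 collagen genes were read by a passing probe set, 24 on MOE430A and 12 on MOE430B, of which Col4a3, Col14a1 and Col25a1 passed on both. The 9 genes without a passing probe set were Col6a5, Col9a2, Col9a3, Col10a1, Col11a2, Col17a1, Col19a1, Col20a1 and Col24a1. Log2 ratios are double knockout over wild type. The only repeat measurement came from 100 probe sets, none of a collagen, that were present on MOE430A and MOE430B alike: from the scatter between their log2 ratios, 1 log2 ratio had an SD of 0.245. That SD leaves out the mean offset between the designs and takes both designs as equally noisy. On average the shared probe sets had log2 ratios 0.215 higher on MOE430A than on MOE430B, an offset that bears on any size compared between designs. A probe set that passed through wild type alone had to read lower, and 7 collagen probe sets did, while 1 passed through double knockout alone. Of the 45 that passed in both genotypes, 38 lay within 0.49 of 0, which is 2 of these SDs, 4 lay further below and 3 further above. Over all probe sets of 1 gene that passed in both, 12.8% on MOE430A and 24.1% on MOE430B lay outside the same limits.

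The stretches before the start sites of 5 collagens with an entry in the table used are shown as RefSeq gives them for GRCm38.p6, 250 bases each, 5′ to 3′ on the gene's own strand. Col1a2 and Col3a1 encode chains of the major fibrils, Col5a3 and Col11a1 encode minor fibrillar chains that passed through wild type alone, and Col25a1 is the collagen past 2-fold higher. Capitals mark matches to CCAAT (or ATTGG on the other strand), to GGGCGG (or CCGCCC) and to TATAAA (or TTTATA).
Col1a2 (chr6:4505368-4505617, plus strand): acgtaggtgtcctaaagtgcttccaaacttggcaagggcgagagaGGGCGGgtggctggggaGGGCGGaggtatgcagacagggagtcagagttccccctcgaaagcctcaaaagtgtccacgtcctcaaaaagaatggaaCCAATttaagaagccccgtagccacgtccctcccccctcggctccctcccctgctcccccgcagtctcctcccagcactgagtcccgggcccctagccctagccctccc
Col3a1 (chr1:45311288-45311537, plus strand): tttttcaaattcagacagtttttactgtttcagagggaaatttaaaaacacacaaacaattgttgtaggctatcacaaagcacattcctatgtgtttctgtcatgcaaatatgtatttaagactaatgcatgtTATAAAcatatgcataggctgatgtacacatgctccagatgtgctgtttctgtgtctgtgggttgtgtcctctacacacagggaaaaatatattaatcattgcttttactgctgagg
Col5a3 (chr9:20815068-20815317, minus strand): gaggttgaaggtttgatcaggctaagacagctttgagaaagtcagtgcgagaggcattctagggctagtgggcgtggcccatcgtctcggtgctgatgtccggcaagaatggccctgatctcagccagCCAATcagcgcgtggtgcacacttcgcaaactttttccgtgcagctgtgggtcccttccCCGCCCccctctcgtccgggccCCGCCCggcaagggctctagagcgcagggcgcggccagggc
Col11a1 (chr3:114030290-114030539, plus strand): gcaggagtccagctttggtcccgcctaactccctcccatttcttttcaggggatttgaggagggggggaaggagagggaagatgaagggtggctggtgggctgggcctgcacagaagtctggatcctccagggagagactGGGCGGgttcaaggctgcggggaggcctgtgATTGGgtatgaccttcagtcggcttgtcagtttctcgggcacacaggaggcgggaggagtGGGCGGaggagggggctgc
Col25a1 (chr3:130180595-130180844, plus strand): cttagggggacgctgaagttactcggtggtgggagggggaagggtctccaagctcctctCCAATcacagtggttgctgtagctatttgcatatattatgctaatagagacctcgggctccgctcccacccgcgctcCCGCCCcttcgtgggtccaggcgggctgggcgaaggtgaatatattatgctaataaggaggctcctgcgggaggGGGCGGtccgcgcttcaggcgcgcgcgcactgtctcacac
Col1a2, Col5a3, Col11a1 and Col25a1 each held 1 CCAAT match and 2 GGGCGG matches, and Col3a1 held 1 TATAAA match and neither of the others. Across 38 start-site windows of 35 collagen genes, CCAAT was found in 13 (34.2%), GGGCGG in 22 (57.9%) and TATAAA in 5 (13.2%), against 33.8%, 32.7% and 12.4% of all 32851 windows of the table. The matches describe letters in these windows only.

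The probe sets of type I, III and V chains that passed in both genotypes lay within 2 SDs of 0, with exceptions. These were 1 probe set of Col1a1 and 1 of Col5a1, both lower. A further 3 minor or cartilage chains passed through wild type alone. Of 8 fibrillar genes measured on MOE430A, 6 read lower and 2 higher, with a median log2 ratio of -0.43, against a median of 0.01 over all 7658 genes measured. Col1a1, Col2a1, Col5a3 and Col11a1 were at least 1.5-fold lower, and 6.29% of all genes were. Col11a1 lay at the edge of that call and was not past it with signals as deposited (-0.58), quantile normalization or a loess curve removed (-0.56 each), or the floor at the median (-0.23). No fibrillar gene on MOE430A was at least 1.5-fold higher, against 6.23% of all genes. On MOE430B none of 12 collagens was at least 1.5-fold higher by its brightest passing probe set, against 14.3%, or 2-fold higher, against 7.09%. The dimmer passing probe set of Col27a1 there was 1.52-fold higher. With so few genes measured, nothing is read from these absences. Only 5 of the 8 fibrillar genes on MOE430A passed the filter in both genotypes. Col2a1, Col5a3 and Col11a1 passed through their wild type signal alone and so had to read lower. Among the 5 that passed in both, only Col1a1 was past 1.5-fold lower, against 3.91% of all genes so measured, and the median was -0.13.

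Type I collagen, the chief fibre protein of connective tissue, is built of chains from Col1a1 and Col1a2. Col1a1 had a signal of 10192 in double knockout and 17496 in wild type lung by one probe set, a log2 ratio of -0.78, and 9292 against 9057 by the other, a log2 ratio of 0.04. The probe sets of this gene therefore give different answers, and its lower value rests on 1 of them. Col1a2 read 35169 in double knockout and 30158 in wild type lung by one probe set and 13953 against 13466 by the other, with log2 ratios of 0.22 and 0.05, and its probe set on MOE430B was under the floor in both. Both log2 ratios were within 1 SD of 0, so the partner chain of type I collagen did not share the lower reading of Col1a1. Col3a1, the single chain of type III collagen, which forms thin fibres with type I, read 27604 against 30280 and 2902 against 3869, with log2 ratios of -0.13 and -0.41.

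Type V collagen starts and thins type I fibrils, and its chains were mixed. Col5a1 had 5832 in double knockout and 4712 in wild type lung by the probe set with the highest signal, a log2 ratio of 0.31, but its other passing probe sets read 3057 against 3905 and 797.4 against 1280, with log2 ratios of -0.35 and -0.68. Col5a2 read 6430 against 7769 and 2263 against 2595, and both probe sets were slightly lower, at -0.27 and -0.20. Col5a3 read 674.0 in double knockout and 1245 in wild type lung, 1.85-fold lower, and its other probe set was under the floor in both. Col5a2 lies next to Col3a1 on chromosome 1, and all 4 probe sets of these neighbours read lower, by 0.13 to 0.41 on the log2 scale.

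The largest difference among the fibrillar genes was in Col2a1, the main collagen of cartilage. Its probe set read 106.9 in double knockout and 1317 in wild type lung, at least 4.63-fold lower, since the double knockout signal lay under the floor. Col11a1, a chain of the type XI collagen that forms fibrils with type II, read 613.4 in double knockout and 923.0 in wild type lung, a log2 ratio of -0.59, and its other probe set was under the floor in both. Col11a2 stayed below the filter and went the other way, with 476.4 in double knockout and 269.1 in wild type lung. Col9a1, a chain of type IX collagen on the surface of type II fibrils, read lower by both probe sets, with 653.6 against 1436 and 1010 against 1232, log2 ratios of -1.14 and -0.29, the first of which passed through wild type alone. Col9a2 and all 3 probe sets of Col9a3 were under the floor in both genotypes, as was Col10a1, the collagen of hypertrophic cartilage, at 61.2 and 59.4.

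Cartilage markers other than collagens were mostly dim, with members on either side of 0. Of 13 listed cartilage genes with a probe set on MOE430A, 2 passed, and the summed signal over the list was 8844 in double knockout and 7883 in wild type lung. Matn4, a cartilage matrix protein, read 2330 against 1996. Acan, the large proteoglycan of cartilage, was below the filter at 686.3 against 549.7. Comp, a cartilage matrix protein that binds collagen, read 365.3 against 505.3, and Sox9, the regulator of cartilage formation, read 561.7 against 423.7 by its brighter probe set, both below the filter. Matn1, Chad and Cnmd were under the floor in both, Cnmd at 14.8 in double knockout and 273.8 in wild type lung. Also below the filter, Snorc, another listed gene, read 646.7 in double knockout and 173.9 in wild type lung, at least 2.27-fold higher. The brightest probe set of Hapln1 on MOE430A went the other way below the filter, at 258.9 against 406.0. On MOE430B 5 of 7 passed, Hapln1, Ucma, Sox5, Sox6 and Trps1, with sums over the list of 18137 and 17839. Much of these sums came from the transcription factors Sox6, at 3612 against 3240, and Trps1, at 3864 against 4155 by their brightest probe sets. The sums are thus not of cartilage matrix genes alone. Hapln1, the link protein of the cartilage matrix, read 2650 in double knockout and 2771 in wild type lung. Ucma, a cartilage matrix protein, read 1215 against 1180 by its passing probe set there. Below the filter, its other probe set read 199.9 against 518.5, and Sox9 read 148.2 against 476.4. The part of cartilage in the values of Col2a1, Col9a1 and Col11a1 was not tested. In whole lung, fewer cells of a type and less RNA per cell cannot be told apart.

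On MOE430B the fibrillar class was read by Col27a1 alone, a long fibrillar chain found in developing cartilage and epithelium. Its probe sets read 11584 in double knockout and 8452 in wild type lung, and 4063 against 2677, with log2 ratios of 0.45 and 0.60. Both probe sets of Col27a1 read higher. Col24a1, another long fibrillar chain, was below the filter, at 187.7 against 606.1.

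**Figure D1:**
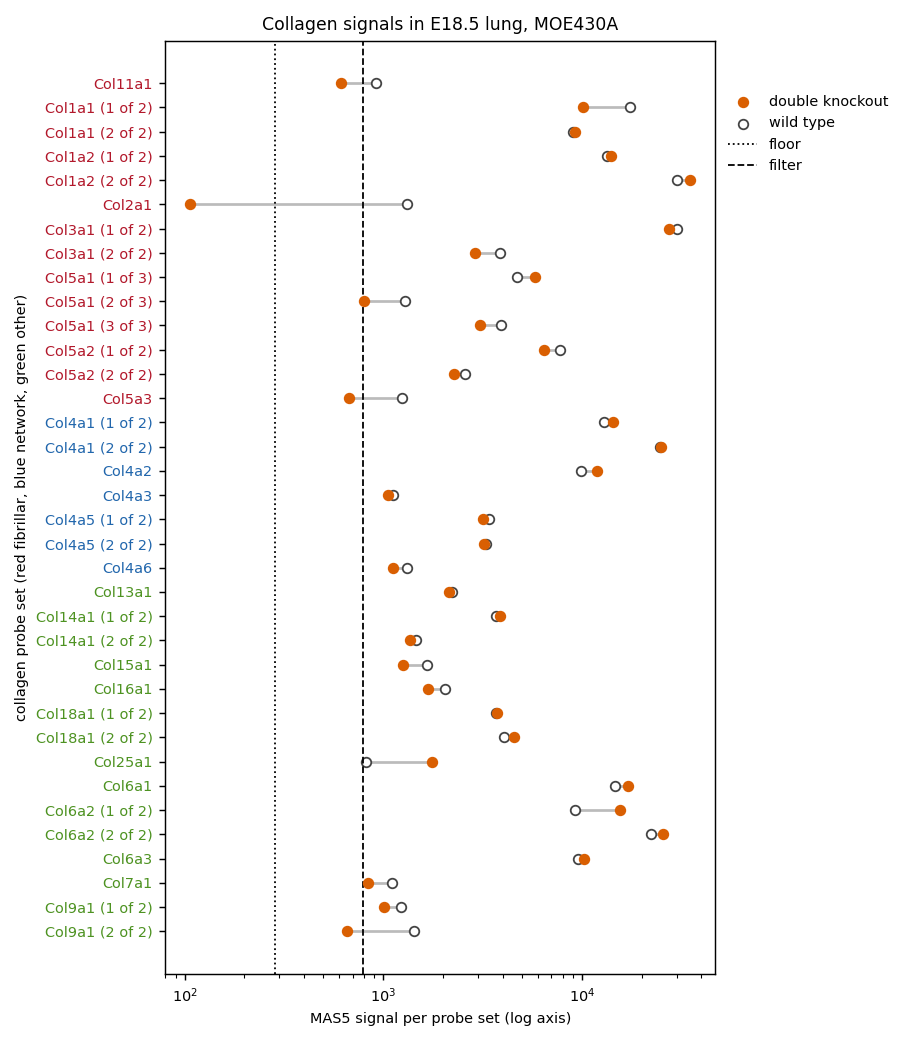
MAS5 signal of each passing collagen probe set on MOE430A (log axis), with double knockout as filled and wild type as open circles, joined by a line, and names coloured by class. The dotted and dashed lines are the floor of 284.5 and the filter of 789.2. Most pairs lie close together, while Col2a1 has 106.9 in double knockout and 1317 in wild type lung.

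The network collagens of the basement membrane read near level on MOE430A. Of 5 genes measured, 3 read lower and 2 higher, with a median of -0.09 and a range from -0.25 to 0.27. None was 1.5-fold different in either direction, against 12.5% of all genes, but 5 genes are too few to tell such a share from none. All 5 passed in both genotypes. On MOE430B 2 of 4 read lower and both were past 1.5-fold, against 14.0% of all genes there, and the median was -0.29, beside -0.04 over all 6728 genes of that design. Col8a1 and Col8a2 among the 4 passed through 1 genotype alone. The call of Col4a4 was not made with the median over its probe sets, -0.41. Over all classes, 2 of the 8 collagens that passed in both genotypes on MOE430B, Col4a4 and Col12a1, were at least 1.5-fold lower, against 8.57% of all genes so measured.

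Col4a1 and Col4a2 make the chains of the type IV network found under nearly all epithelium and endothelium. Col4a1 read 25126 in double knockout and 24855 in wild type lung, and 14335 against 12990 by its other probe set, with log2 ratios of 0.02 and 0.14. Col4a2 read 11963 against 9906, a log2 ratio of 0.27. All 3 readings lay above 0, those of Col4a1 within 1 SD of it and that of Col4a2 within 2, but the reading of Col4a1 turned to -0.12 with quantile normalization and -0.11 with a loess curve removed. These genes lie head to head on chromosome 8, where the RefSeq transcript of Col4a2 starts on the plus strand and that of Col4a1 on the minus strand, so that their first 22 bases overlap. The overlap is shown because both genes begin in it, in lower case throughout, and the GGGCGG match that it holds is left unmarked.
Col4a2 to Col4a1 starts (GRCm38.p6, chr8:11312805-11312826, plus strand): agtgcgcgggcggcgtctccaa

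The chains from Col4a3, Col4a4 and Col4a5 form a second type IV network, known from the thin basement membrane of the alveolus and the kidney. Col4a3 read 1053 in double knockout and 1122 in wild type lung on MOE430A, a log2 ratio of -0.09, and 3676 against 2818 on MOE430B, a log2 ratio of 0.38. Its neighbour on chromosome 1, Col4a4, read 4855 against 7897 and 5080 against 5553 on MOE430B, with log2 ratios of -0.70 and -0.13, and stayed below the filter on MOE430A at 254.9 against 560.9. Col4a4 was thus lower by each of its 3 probe sets, by differing amounts, whereas Col4a3 had readings on either side of 0. On the X chromosome, Col4a5 read 3161 against 3404 and 3210 against 3289, with log2 ratios of -0.11 and -0.04. Its neighbour Col4a6, whose chain joins that of Col4a5 under smooth muscle and airway epithelium, read 1113 against 1321, a log2 ratio of -0.25, and its dimmer probe set stayed below the filter.

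Type VIII collagen forms hexagonal sheets in vessels and in Descemet's membrane of the eye. Col8a2 read 800.5 in double knockout and 1451 in wild type lung, 1.81-fold lower, and passed through its wild type signal alone. Col8a1 read 918.9 against 844.5 and passed through its double knockout signal alone, with a log2 ratio of 0.12, while on MOE430A its probe sets were below the filter, the brighter at 330.3 against 360.8. The filter fixed the direction of both genes on MOE430B.

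**Figure D2:**
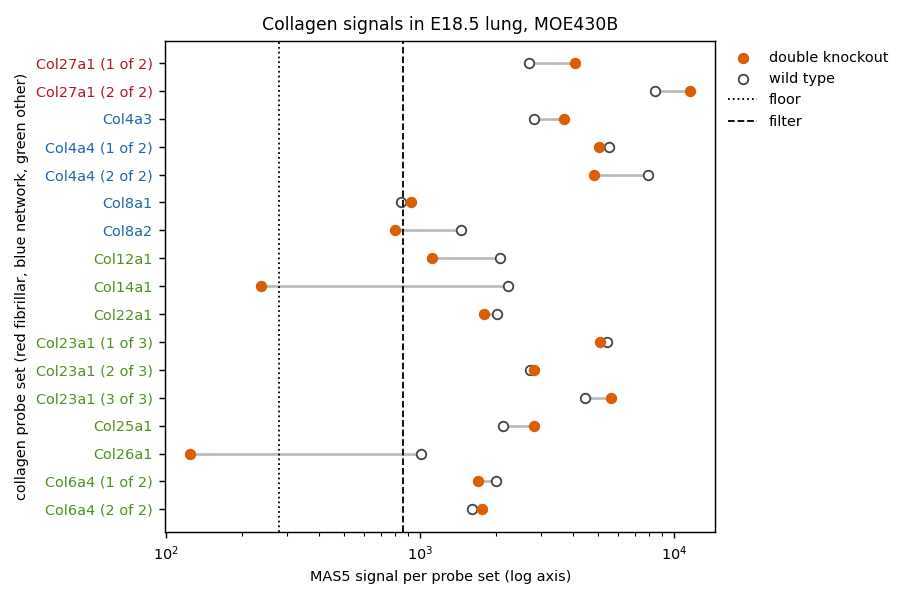
MAS5 signal of each passing collagen probe set on MOE430B (log axis), drawn as for the other design, with the floor at 279.1 and the filter at 858.2. The widest gaps are at Col14a1, with 236.2 in double knockout and 2219 in wild type lung, and Col26a1, with 124.9 and 1006.

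The other collagens held both the most even group and the most discordant readings. On MOE430A 11 genes were measured, 6 higher and 5 lower, with a median of 0.07. Only Col25a1 was past 1.5-fold by the probe set that read its gene. On MOE430B 7 were measured, with a median of -0.23, and 3 of them were at least 1.5-fold lower, against 14.0% of all genes. Col14a1 and Col26a1, 2 of these 3, passed through wild type alone. The 5 genes that passed in both genotypes had a median of -0.16, and 1 of them, Col12a1, was past 1.5-fold.

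Type VI collagen forms beaded filaments around cells from chains of Col6a1, Col6a2 and Col6a3. Col6a1 read 17029 in double knockout and 14753 in wild type lung, a log2 ratio of 0.21. Col6a2 read 25723 against 22244 by one probe set, also 0.21, and 15522 against 9217 by the other, 0.75, a probe set whose name marks possible cross-hybridisation. Col6a3 read 10205 against 9590, a log2 ratio of 0.09. All 4 probe sets of these chains were higher in the double knockout, and 3 of them lay within 1 SD of 0. Col6a1 and Col6a2 are neighbours on chromosome 10. Col6a4, on MOE430B, read 1695 against 1984 and 1748 against 1604, with log2 ratios of -0.23 and 0.12.

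The collagens that sit on the surface of fibrils were mostly level or lower. Col16a1 read 1675 in double knockout and 2053 in wild type lung, a log2 ratio of -0.29. Col12a1, a bridge between fibrils in dense connective tissue, read 1111 against 2074 on MOE430B, 1.87-fold lower, while its probe sets below the filter read 115.5 against 421.8 on the same design and 342.8 against 168.7 on MOE430A. A further probe set of Col12a1 was under the floor in both. Col22a1, known from tissue junctions such as those of muscle and tendon, read 1794 against 2002 on MOE430B, a log2 ratio of -0.16, and was under the floor in both genotypes by its probe sets on MOE430A.

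Col14a1, which regulates fibril growth, gave the widest disagreement. On MOE430B it read 236.2 in double knockout and 2219 in wild type lung, at least 7.95-fold lower. On MOE430A it read 3875 against 3693 and 1369 against 1458, with log2 ratios of 0.07 and -0.09. The readings of Col14a1 on MOE430A were both near level, so the low value was seen by 1 of 3 probe sets.

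Col25a1, a transmembrane collagen of neurons that is known in mice for its part in motor innervation of muscle, was the only collagen at least 2-fold higher, against 1.76% of all genes on MOE430A. It read 1756 in double knockout and 815.2 in wild type lung on MOE430A, 2.15-fold higher, and 2810 against 2118 on MOE430B, a log2 ratio of 0.41. Both designs gave the same direction, by different probe sets. The other measured transmembrane collagens lay within 2 SDs of 0, with Col13a1 at 2148 against 2231 and Col23a1 at log2 ratios from -0.08 to 0.34 over 3 probe sets. Col17a1, the hemidesmosome collagen of stratified epithelium, was below the filter at 321.4 in double knockout and 107.4 in wild type lung. Col6a5, a late-found chain of the type VI family, and Col19a1 and Col20a1, which belong to the fibril-surface group, also stayed below the filter, with the highest signal at 635.2 in double knockout lung for Col19a1.

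Collagens tied to basement membranes among this class lay within 2 SDs of 0. Col18a1, the source of endostatin, read 4560 in double knockout and 4050 in wild type lung and 3720 against 3701, with log2 ratios of 0.17 and 0.01. Col15a1, its relative under vessels and muscle, read 1264 against 1653, a log2 ratio of -0.39, and Col7a1, which anchors stratified epithelium, read 837.8 against 1113, a log2 ratio of -0.41. Col26a1, a collagen with an EMI domain, read 124.9 in double knockout and 1006 in wild type lung on MOE430B, at least 3.60-fold lower. Its probe set on MOE430A was below the filter, at 392.5 against 475.8, so the size of the difference was not seen there. Col14a1 and Col26a1 were the collagens at least 2-fold lower on MOE430B, against 6.24% of all genes, and Col2a1 was the one on MOE430A, against 1.78%. All 3 passed through wild type alone and so had to read lower, so nothing is read from these counts.

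**Figure D3:**
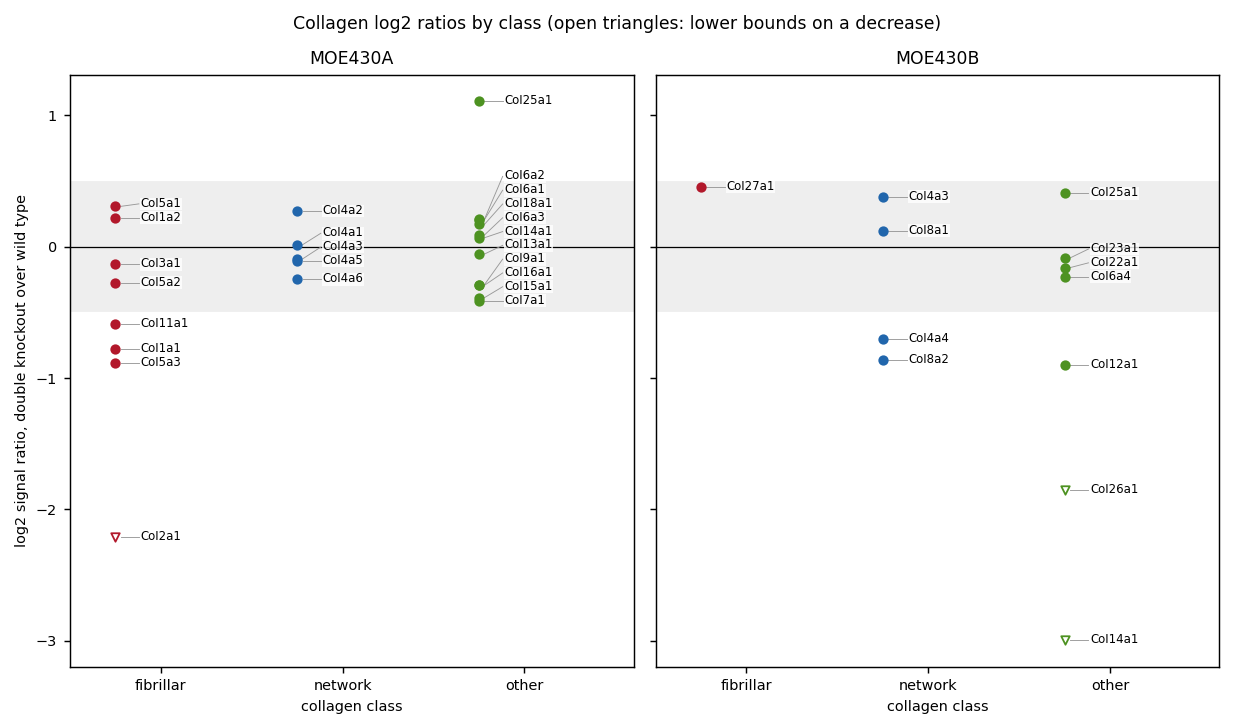
Log2 ratio of signals, double knockout over wild type, of each collagen gene by its brightest passing probe set, split by class and design, with the grey band at 0.49 on either side of 0. The fibrillar genes on MOE430A reach from -2.21, a bound for Col2a1, which passed through wild type alone, to 0.31, and the network genes there lie between -0.25 and 0.27.

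The probe sets of a gene did not always read the same way. Of 17 collagens with 2 or more passing probe sets, 11 read in 1 direction by all of them and 6 in both directions. Col14a1, Col1a1, Col4a3, Col5a1, Col6a4 and Col23a1 were the 6. Within genes, the SD of log2 ratios was 0.347 for 11 collagens on MOE430A and 0.257 for 4 on MOE430B, beside 0.370 and 0.714 over all genes with several passing probe sets.

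**Figure D4:**
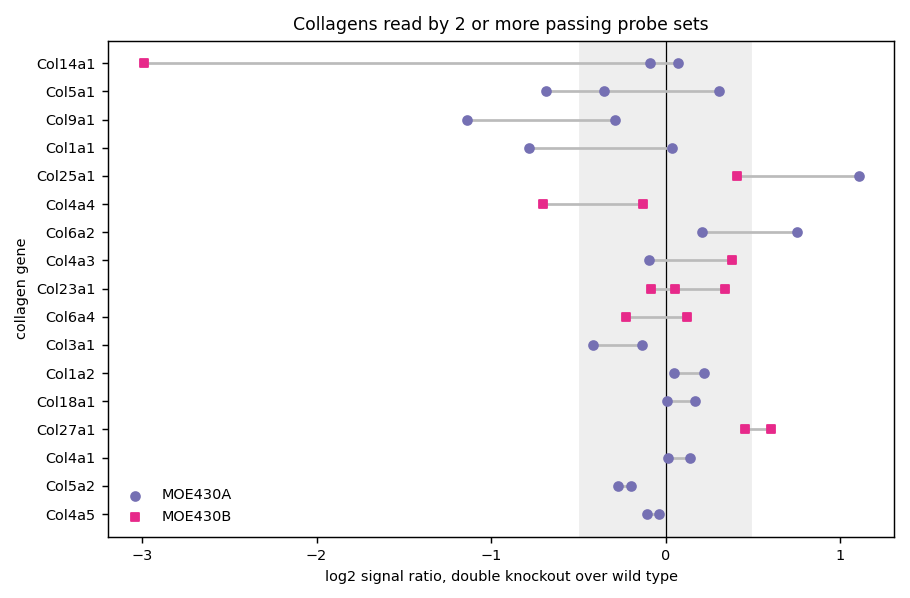
Log2 ratios, double knockout over wild type, of the 17 collagens with 2 or more passing probe sets, with MOE430A as circles and MOE430B as squares and the grey band at 0.49 on either side of 0. Col14a1 spans -2.99 to 0.07, while the probe sets of Col5a2 lie between -0.27 and -0.20.

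Genes that handle collagen were read next. Of 17 measured genes of collagen modification and folding on MOE430A, 11 read lower and 6 higher, none by 1.5-fold, with a median of -0.06. Serpinh1, the collagen chaperone HSP47, read 16015 in double knockout and 17724 in wild type lung, a log2 ratio of -0.15, and 0.33 by its other probe set. Ppib, a prolyl isomerase of the procollagen folding complex, had 0.27. On MOE430B 5 genes had a median of -0.17. Of 7 genes of procollagen processing and crosslinking on MOE430A, 4 read lower, with a median of -0.06, where Pcolce, an enhancer of the C-proteinase, had -0.55 and Bmp1, the C-proteinase itself, 0.43. On MOE430B that list held Adamts3, at -0.57 and passing through wild type alone, and Pxdn, which crosslinks type IV collagen, at -0.49. Collagen receptors had a median of 0.04 over 4 genes on MOE430A and 0.23 over 4 on MOE430B. The 3 that passed in both genotypes on MOE430B had a median of -0.18, with 2 lower and 1 higher. The lower were Ddr2, at -0.36, and Itga1, at -0.18 by its brightest probe set and 0.05 by its other. On MOE430B Itga10, an integrin chain that binds collagen, read 1241 in double knockout and 455.2 in wild type lung, passing through double knockout alone, and Gp6, the collagen receptor of platelets, read 1403 against 896.1, 1.57-fold higher.

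Proteins that bind fibrils had a median of -0.40 over 13 genes on MOE430A. Thbs2 and Matn2 passed through wild type alone. Of the 11 that passed in both genotypes, 8 were lower and 3 higher, with a median of -0.35, and 3 were at least 1.5-fold lower, where 3.91% of all genes so measured were. Lum, a small leucine-rich proteoglycan that spaces collagen fibrils, read 2728 in double knockout and 5568 in wild type lung, 2.04-fold lower. Aspn, of the same family, read 992.8 against 2051, 2.07-fold lower, and both of its probe sets were lower. Dcn, decorin, had -0.73 and Thbs2, a thrombospondin known in mice for its effect on fibril shape, -0.86, both named after their values were seen. Bgn and Sparc went slightly the other way, at 0.18 and 0.16. On MOE430B the list held 2 genes, Thbs2 at -0.14 and Sparc at 0.87, each passing through 1 genotype alone. On MOE430A the median was -0.12 for 12 other basement membrane proteins and -0.14 for 12 elastic fibre proteins, against 0.01 over all genes. Markers of lung fibroblasts and mesenchyme had a median of 0.36 over 10 genes, with summed signals of 72435 in double knockout and 54735 in wild type lung. That list spanned -3.00 for Thy1, which the lymphoid list also holds, to 1.46, and the part of fibroblast number in the collagen values was not tested.

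**Figure D5:**
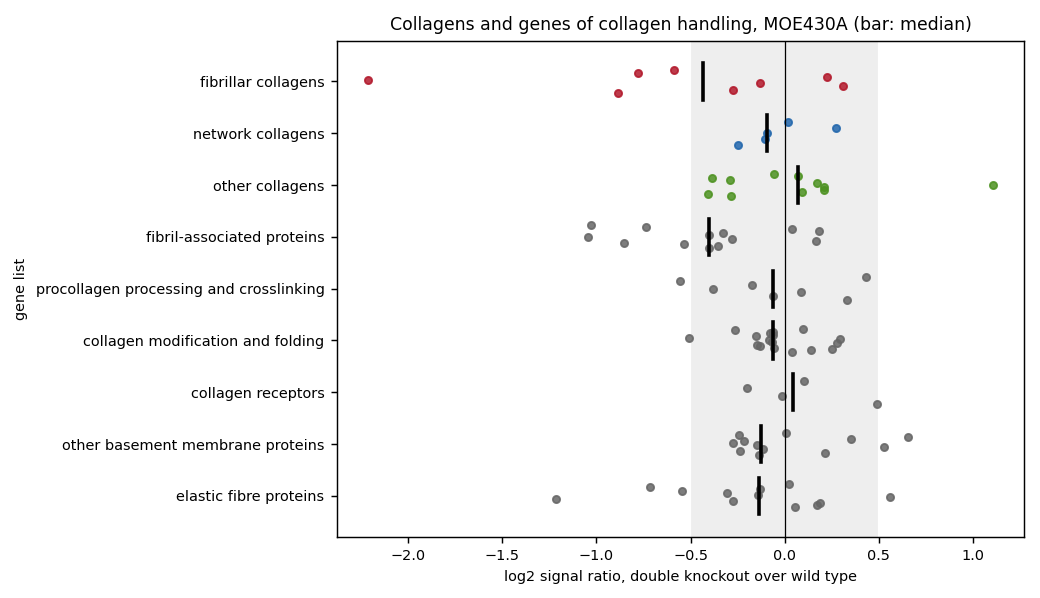
Log2 ratios, double knockout over wild type, of collagen classes and of genes that handle or accompany collagen on MOE430A, with 1 point per gene, a bar at the median and the grey band at 0.49 on either side of 0. The fibrillar collagens and the fibril-associated proteins have medians of -0.43 and -0.40, which are -0.13 and -0.35 over genes that passed in both genotypes, and the other lists have medians from -0.14 to 0.07.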

How the data were processed

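RNA of E18.5 mouse lung was measured on 4 Affymetrix arrays, 1 per genotype and design, and grouped by title. The authors deposited 1 linear intensity per probe set and array, a MAS5 signal per the submitters' processing notes. The sources used here give neither MAS5's settings nor its detection calls. The 2% trimmed mean was 1500.5 on both MOE430A arrays and 1500.2 on both MOE430B arrays. On MOE430B the shared probe sets had signals a median of 3.96 times those on MOE430A, so every ratio stays inside 1 design. MAS5 signals are noisy when dim.

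On each design 64 control probe sets were dropped, and the double knockout array was divided by 1.004 on MOE430A and 1.008 on MOE430B so that the median ratio of passing probe sets (12203 and 12891) was 1. Filter and floor are given in the report. Where several probe sets of a gene passed in a design, the brightest by mean log2 signal read it. The annotation paired 20380 and 14661 probe sets with 1 gene, 691 and 245 with several and 1555 and 7605 with none, and RefSeq (GRCm38.p6) changed 0 symbols. Every collagen could be named. From other lists the rule named up to 4 members per design, the 2 highest and 2 lowest log2 ratios among those whose brighter signal reached the 75th percentile and whose signals both reached the floor, and both targeted genes were named too. Cartilage genes below the filter, Ucma, Sox5, Matn2, Adamts3, Itga10, Gp6, Sftpc, Xist, the genes of the short list on MOE430B and genes said to be named after their values were seen fall outside it. The members and lists were chosen with earlier results of these data known, and Col26a1 was put among the other collagens after the annotation was read. With 1 array per group there is no test. Calls are folds of 1.5 and 2. The steps were tested on simulated arrays. Alternatives were the signals as deposited, quantile normalization, loess (span 0.3), other floors and filters, the median over probe sets, and dropping probe sets with names ending in _x_at or _s_at. The work used python 3.11.15, pandas 2.3.3 and statsmodels 0.14.6.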

Additional observations from a re-analysis of the deposited data

How the results depend on the processing

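With 1 array per genotype and design, 1 reading can rest on 1 hybridisation, and dim probe sets are the least certain. Under the alternatives, the fibrillar median on MOE430A stayed below 0, from -0.43 to -0.15. Its sign was partly fixed by Col2a1, Col5a3 and Col11a1, which passed through wild type alone in the main processing. Over the genes that passed in both genotypes there, the median was -0.13, within 1 SD of 0. With the filter at the 75th percentile, where fewer genes are read, the fibrillar median was -0.15 over 5 genes. That filter also left 1 collagen at least 1.5-fold lower on MOE430A and 3 on MOE430B, and 0 at least 1.5-fold higher on MOE430A. For 2-fold it left 0 higher and 0 lower on MOE430A and 1 lower on MOE430B. With the floor at the median, 0 collagens on MOE430A and 1 on MOE430B were at least 2-fold lower, since a higher floor shrinks a bound. Col11a1 lost its 1.5-fold call under 4 alternatives, which left 3 collagens past it on MOE430A. Without a filter, 2 collagens on MOE430A were at least 1.5-fold higher. Counts as reported on MOE430A were 4 lower and 1 higher past 1.5-fold, and 1 lower and 1 higher past 2-fold. On MOE430B they were 5 lower past 1.5-fold and 2 lower past 2-fold. The median of the other collagens on MOE430A ranged from -0.01 to 0.08 and that of the network collagens from -0.11 to 0.00, so neither kept a direction there. On MOE430B the other collagens ranged from -0.27 to -0.11 and the network collagens from -0.30 to -0.15. Both medians there include genes that passed through 1 genotype alone. Of 36 collagen readings, a gene counted once per design, 27 stayed within 1 SD (0.245) of their value under every alternative that gave one, and 32 kept their sign. No called reading changed sign, but the alternatives rework the same signals, so a kept sign is not a repeat measurement. The filter had also fixed the sign for Col2a1, Col5a3, Col8a2, Col11a1, Col26a1 and Col14a1 on MOE430B, which passed through wild type alone. Col2a1 moved with the floor, from -3.62 at the 10th percentile to -0.74 at the median, and Col26a1 from -3.01 to -0.23. The median over probe sets gave -0.37 for Col1a1 and -0.35 for Col5a1, which read 0.31 by its brightest probe set. No paired analysis was possible because each genotype had 1 array per design.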
